A study of Homo sapiens with 6 samples.

Results

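The ubiquitin-specific proteases (USPs) are the largest family of human deubiquitinases, the enzymes that take ubiquitin off proteins. They were taken here as all rows of the deposited table whose gene symbol is USP, a number and an optional X or L, which gave 48 of 33392 genes. Their transcript levels were compared between 3 libraries of HK-2 cells treated with TGF-β1 and an siRNA against DYRK2 (siDYRK2) and 3 libraries of HK-2 cells treated with TGF-β1 and a scramble siRNA (scramble), all with a 48 h time point. HK-2 is an immortalised human epithelial line that was derived from kidney proximal tubule, TGF-β1 is a cytokine that drives matrix production in the tubule, and DYRK2 is a protein kinase. All cells received TGF-β1, so every difference is between siDYRK2 and scramble cells under that cytokine. The labels do not say whether replicates came from separate cultures or how many siRNA sequences were used, so the p-values measure only the spread between these libraries, which may be technical.

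Ubiquitin is a small protein that is attached to other proteins in chains or singly, and the chain decides whether the target is sent to the proteasome, moved between membranes or changed in activity. USPs are cysteine proteases that cut these links, so a USP can stabilise its target or end its signal. In the TGF-β pathway, USP4, USP11 and USP15 are known to act on the type I receptor and on SMAD complexes, and USP9X acts on SMAD4, the common partner of the receptor-regulated SMADs. DYRK2 is known to phosphorylate p53 and to serve as a scaffold for a ubiquitin ligase.

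The 300 bases around the annotated start of 2 members are shown because USP38 and USP19 were the members with the largest falls. Both come from RefSeq on GRCh38.p14 and run 5′ to 3′ on the strand of the gene, from 250 bases before the start to 50 bases after it.
USP38, chr4:143184667-143184966, plus strand: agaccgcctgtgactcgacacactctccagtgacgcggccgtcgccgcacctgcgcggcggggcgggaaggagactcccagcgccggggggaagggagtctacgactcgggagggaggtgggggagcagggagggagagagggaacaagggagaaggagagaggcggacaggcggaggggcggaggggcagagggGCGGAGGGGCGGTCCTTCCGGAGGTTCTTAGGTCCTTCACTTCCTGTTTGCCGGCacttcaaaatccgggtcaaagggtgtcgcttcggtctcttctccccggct
USP19, chr3:49120774-49121073, minus strand: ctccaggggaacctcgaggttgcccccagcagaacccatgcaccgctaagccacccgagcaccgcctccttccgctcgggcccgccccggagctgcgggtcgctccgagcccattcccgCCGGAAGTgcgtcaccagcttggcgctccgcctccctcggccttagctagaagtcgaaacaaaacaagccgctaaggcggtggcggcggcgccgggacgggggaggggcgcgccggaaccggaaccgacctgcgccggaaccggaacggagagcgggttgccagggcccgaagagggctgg
In USP38 the capitals mark the 55 bases between the start of a divergent noncoding transcript, USP38-DT, on the minus strand and the start of USP38 on the plus strand, as GENCODE v29 places them. In USP19 the capitals mark CCGGAAGT, the core of binding sites of ETS transcription factors, at −131 to −124 from the RefSeq start. GENCODE v29 places the start of USP19 at 49120938, upstream of the RefSeq start and within this window. GC made up 67.3% of the USP38 stretch and 71.3% of the USP19 stretch.

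Of the tested members, 36 had a promoter entry, and these windows were searched on both strands for 7 short motifs, matches being a description of letters and not of binding. The ETS core CCGGAAGT was found in USP19, USP11 and USP16, 8.33% of the members searched against 4.44% of 27305 promoters. The E-box CACGTG was found in USP32, USP36 and USP28, 8.33% against 7.43% of all promoters. CCAAT was found in 10 members, 27.8% against 35.7%, among them USP1, USP13, USP47 and USP53. The cyclic AMP response element TGACGTCA, the interferon-stimulated response element (ISRE) and the E2F forms TTTCCCGC and TTTGGCGC were found in 0 of the 36 windows, against 1.98%, 3.65%, 1.66% and 0.659% of all promoters. The ISRE was searched as GAAA, any 2 bases and GAAA.

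The siRNA target was lower in every library of its group. DYRK2 stood at 1.45, 1.54 and 1.49 FPKM in siDYRK2 cells, against 5.84, 6.06 and 5.96 FPKM in scramble cells, 25.1% of the scramble mean (limma adjusted p = 2.0e-06; exact two-sided permutation p = 0.1, the smallest that 3 against 3 libraries allow). FPKM correct for transcript length as well as for the size of the library, so they may be compared between genes. Library sums ran from 252318 to 255378 FPKM, with 26.3% to 27.8% in mitochondrially encoded genes, and the sequencing depth is unknown. Of the epithelial markers 5 of 5 were above 0.5 FPKM, with a summed level of 238 to 250 FPKM in siDYRK2 cells and 333 to 351 FPKM in scramble cells. Within this list CDH1, KRT18 and KRT19 were called lower, while EPCAM and KRT8 were not called. Of the proximal tubule markers, the endocytic receptor CUBN stood at 0.08 FPKM in siDYRK2 cells and 0.127 FPKM in scramble cells, and the water channel AQP1 at 0.0867 FPKM in siDYRK2 cells and 0.26 FPKM in scramble cells. The phosphate transporter SLC34A1 stood at 0.01 FPKM in both groups, so these defining markers of the labelled tubule segment were near 0. The lung and thyroid list, with 3 of 4 markers above 0.5 FPKM and led by NKX2-1 at 23.4 FPKM in siDYRK2 cells and 26.5 FPKM in scramble cells, summed to 28.2 to 29.4 FPKM in siDYRK2 cells and 30.4 to 33.9 FPKM in scramble cells. The immune list, with a row for CD14 alone, summed to 0.49 to 0.85 FPKM in siDYRK2 cells and 0.24 to 0.30 FPKM in scramble cells, and the fibroblast list to 0.61 to 0.73 FPKM in siDYRK2 cells and 0.35 to 0.42 FPKM in scramble cells. Most of the fibroblast sum was COL1A1, with a mean of 0.57 FPKM in siDYRK2 cells and 0.347 FPKM in scramble cells. The endothelial list stayed at or under 0.07 FPKM in every library, and the part of marker differences in the USP results was not tested. In these bulk samples fewer cells of a type and less RNA per cell cannot be told apart.

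Silencing of DYRK2 went with a higher level of 12 USP transcripts, a lower level of 3 and no call for 30. The rises were led by USP2 (2.35-fold) and USP18 (1.49-fold), and the falls by USP38 (1.74-fold) and USP19 (1.38-fold). The remaining called members differed by log2 differences between −0.18 and 0.33, given for siDYRK2 over scramble on a log2(FPKM + 0.5) scale that understates the change of low genes. These counts are over 45 members with a mean of at least 0.5 FPKM over the 6 libraries, tested with limma at an adjusted p of 0.05 over all 15121 genes that passed this filter. Called genes made up 33.3% of the members and 38.3% of all tested genes. All higher calls came to 20.4% and all lower calls to 17.9% of the tested genes, against 12 and 3 of 45 members. The siDYRK2 and scramble values did not overlap for 24 members (19 higher and 5 lower in siDYRK2 cells), or 53.3%, and for 51.7% of all tested genes. The share of members called is therefore close to that of the transcriptome. Without siDYRK2 replicate 1 the count of higher members was 7, and that of all higher genes went from 3079 to 2389.

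The median log2 difference was 0.08 over the members, with 32 positive and 13 negative. Over all tested genes it was 0.0086, with 7780 positive and 7341 negative. The size of the differences was modest: the median absolute log2 difference was 0.11 over the members and 0.17 over all tested genes. An absolute log2 difference of at least 0.5 was seen for 3 members, USP2, USP18 and USP38, or 6.67%, against 9.98% of all tested genes. Of the 30 members without a call, every 95% interval of the log2 difference lay within ±0.5, and 21 lay within ±0.25. The FPKM of all USPs together summed to 438 to 447 in siDYRK2 cells and 427 to 434 in scramble cells, and made up 0.237% to 0.243% of the FPKM outside mitochondrially encoded genes in siDYRK2 cells and 0.231% to 0.233% in scramble cells.

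**Figure D1:**
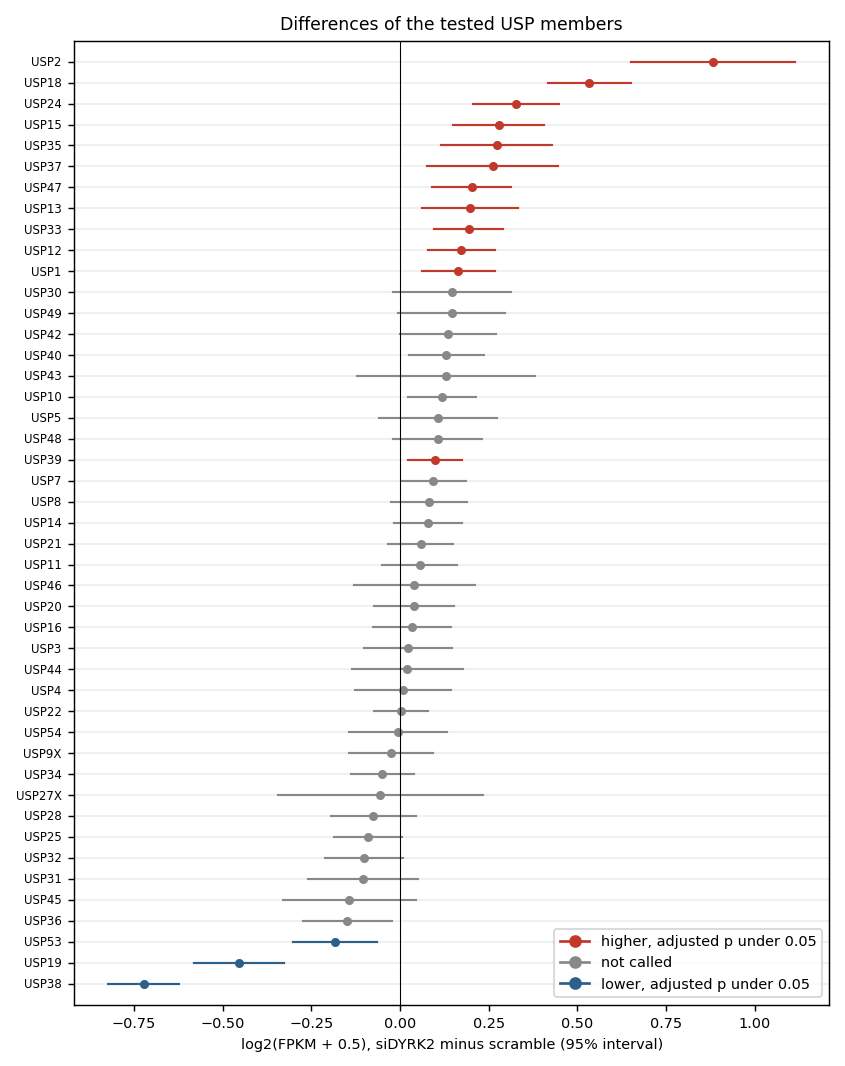
Log2 difference of each tested USP in siDYRK2 over scramble cells, from log2(FPKM + 0.5), with its 95% interval from limma; red and blue mark members called higher and lower at an adjusted p under 0.05. USP2 at 0.88 and USP18 at 0.53 lie farthest right, USP38 at −0.72 and USP19 at −0.45 farthest left, and the 30 grey members have intervals within ±0.5.

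The family spanned a wide range of levels in these cells. Over all 6 libraries USP22 had the highest mean, 61.5 FPKM, the median tested member had 5.89 FPKM, and USP43 had the lowest tested mean, 1.15 FPKM. There were 16 tested members at 10 FPKM or more and 29 between 1 and 10 FPKM, and the median of all tested genes was 4.75 FPKM. Replicates were close: the median coefficient of variation over the tested members was 4.04% in siDYRK2 cells and 3.84% in scramble cells. USP51, USP6 and USP50 stayed below the filter, at means of 0.327, 0.213 and 0.230 FPKM in siDYRK2 cells and 0.423, 0.25 and 0.193 FPKM in scramble cells, and were not tested. Members of the closely related USP17L group, which lie outside the naming rule, have 27 rows with a highest value of 0.06 FPKM.

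**Figure D2:**
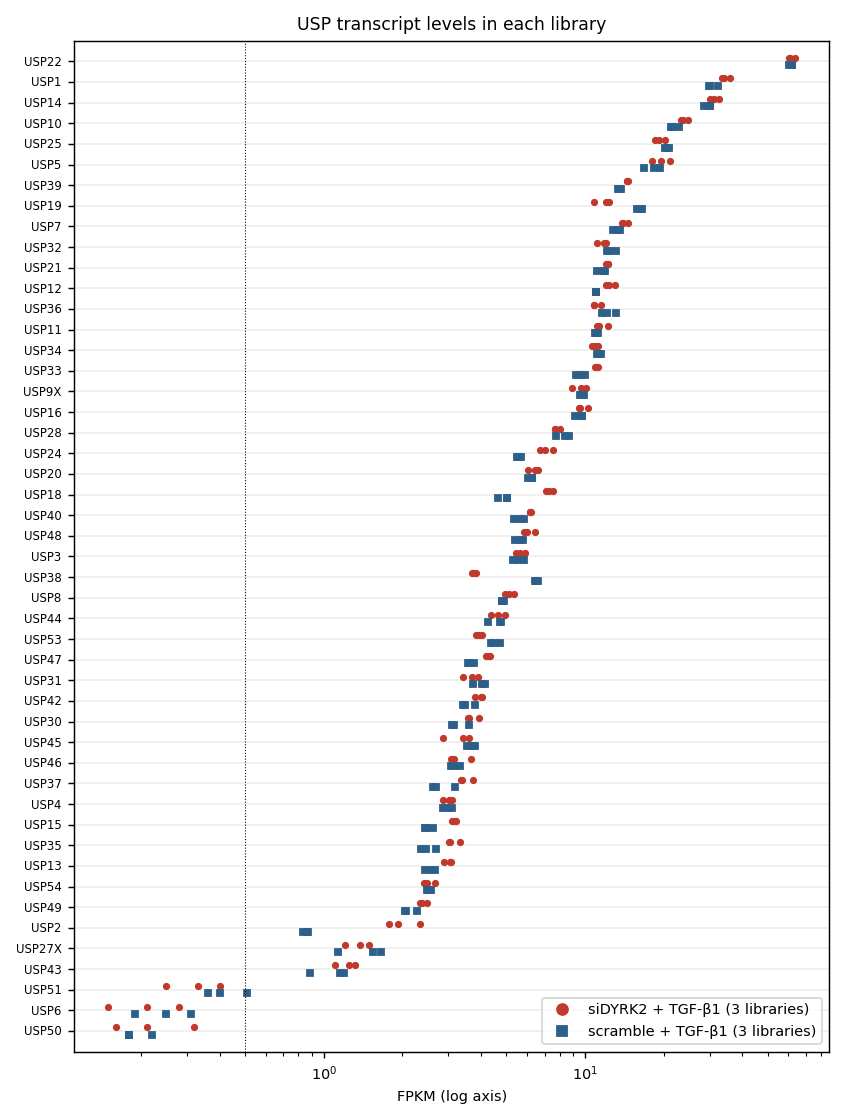
FPKM of all 48 USPs in each library on a log axis, ordered by mean level, with siDYRK2 libraries as red circles above scramble libraries as blue squares. USP22 leads at 61.5 FPKM, and the 3 members left of the dotted line at 0.5 FPKM were not tested.

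Of the 4 USPs known for the TGF-β receptor and SMADs, USP15 alone passed the test, or 25.0% called against 38.3% of all tested genes. USP15, which acts on the type I receptor complex and on receptor-regulated SMADs, had 3.11, 3.15 and 3.21 FPKM in siDYRK2 cells, against 2.45, 2.47 and 2.63 FPKM in scramble cells. Every siDYRK2 library was above every scramble library, and the difference was 0.28 in log2 (SE 0.0545, adjusted p = 0.0064), a 1.25-fold rise. USP15 lies on GRCh38 chromosome 12, 62260338 to 62417431, plus strand.

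USP4, its closest relative and also a protease of the type I receptor, had 3.11, 2.87 and 3.02 FPKM in siDYRK2 cells, against 3.09, 2.85 and 3.0 FPKM in scramble cells. These groups overlap almost fully, with a log2 difference of 0.01 (95% interval −0.13 to 0.14, adjusted p = 0.93). USP11, another relative, had 12.2, 11.1 and 11.3 FPKM in siDYRK2 cells, against 11.3, 11.0 and 11.0 FPKM in scramble cells (log2 difference 0.06, 95% interval −0.05 to 0.16, adjusted p = 0.37). USP9X, which acts on SMAD4, had 8.94, 9.68 and 10.1 FPKM in siDYRK2 cells, against 9.58, 9.76 and 9.90 FPKM in scramble cells (log2 difference −0.03, 95% interval −0.14 to 0.09, adjusted p = 0.73). The fifth member listed for this role, USP26, was not analysed here.

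Of the 5 tested USPs listed under cell cycle and mitosis, 4 were higher and 0 lower. Of all tested genes, 20.4% were higher and 17.9% lower. This small group was chosen with results known, and it includes the spliceosome member USP39. USP35, known for stabilising Aurora B in mitosis, had 3.32, 3.04 and 3.02 FPKM in siDYRK2 cells, against 2.68, 2.47 and 2.36 FPKM in scramble cells (log2 difference 0.27, SE 0.0664, adjusted p = 0.016). USP37, which removes ubiquitin from cyclin A and so opposes the anaphase-promoting complex, had 3.36, 3.71 and 3.39 FPKM in siDYRK2 cells, against 2.70, 2.62 and 3.18 FPKM in scramble cells (log2 difference 0.26, SE 0.0788, adjusted p = 0.036). In both, the groups did not overlap, although scramble replicate 3 of USP37 came close to the siDYRK2 libraries. USP13, a relative of USP5 with roles in protein quality control and mitosis, had 2.89, 3.04 and 3.07 FPKM in siDYRK2 cells, against 2.45, 2.67 and 2.54 FPKM in scramble cells (log2 difference 0.20, SE 0.0577, adjusted p = 0.032). USP39, a catalytically inactive member that works in the spliceosome, had 14.5, 14.5 and 14.6 FPKM in siDYRK2 cells, against 13.5, 13.8 and 13.3 FPKM in scramble cells (log2 difference 0.10, SE 0.0322, adjusted p = 0.047).

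The rise of USP39 is the smallest of all calls, and what moved is a splicing factor and not an active protease. USP44, which guards the spindle checkpoint by acting on CDC20, had a log2 difference of 0.02 (95% interval −0.14 to 0.18, adjusted p = 0.83). These 4 calls depended on the settings. In 14 alternative analyses USP39 lost its call in 9, USP37 and USP13 in 7 each and USP35 in 2, all with the same direction. Leaving out any of the 6 libraries ended the call of USP39, with adjusted p between 0.0867 and 0.109. USP37 lost it without any siDYRK2 library and without scramble replicates 1 and 2 (adjusted p 0.0634 to 0.11), USP13 without any siDYRK2 library and without scramble replicates 1 and 3 (adjusted p 0.0512 to 0.092), and USP35 without siDYRK2 replicate 1 and without scramble replicate 2 (adjusted p 0.0557 and 0.0521).

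Exons of USP39 overlap those of genes on the other strand. TMEM150A, one of them, stood at 5.73 FPKM in siDYRK2 cells and 8.41 FPKM in scramble cells (adjusted p = 0.0011), which is the opposite direction, and C2orf68, another, at 5.05 FPKM in siDYRK2 cells and 4.49 FPKM in scramble cells (adjusted p = 0.10). KCTD21, which overlaps USP35, stood at 2.95 FPKM in siDYRK2 cells and 1.89 FPKM in scramble cells (adjusted p = 0.26). Whether the counting used strand is not given in the sources used here, so reads of these pairs cannot be told apart.

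Among the 6 USPs of DNA repair, replication and the p53 axis, 2 rose and 0 fell, or 33.3% called against 38.3% of all tested genes. USP1, which removes ubiquitin from FANCD2, FANCI and PCNA after DNA damage, was the most abundant of all called members, with 34.1, 35.8 and 33.3 FPKM in siDYRK2 cells, against 29.8, 32.2 and 30.0 FPKM in scramble cells. Its groups did not overlap, and the log2 difference was 0.16 (SE 0.0437, adjusted p = 0.022), a 1.12-fold rise. That call ended without siDYRK2 replicate 1, siDYRK2 replicate 2, scramble replicate 1 or scramble replicate 3, at adjusted p between 0.0543 and 0.0727. USP47, a relative of USP7 that acts on DNA polymerase beta, had 4.18, 4.34 and 4.28 FPKM in siDYRK2 cells, against 3.61, 3.75 and 3.57 FPKM in scramble cells (log2 difference 0.20, SE 0.0474, adjusted p = 0.013). USP7, the protease of MDM2 and p53, had 14.0, 13.9 and 14.6 FPKM in siDYRK2 cells, against 13.6, 13.3 and 12.8 FPKM in scramble cells (log2 difference 0.09, adjusted p = 0.097). The groups did not overlap for USP7, but it missed the threshold. USP10, a cytoplasmic protease of p53, had 23.9 FPKM in siDYRK2 cells and 22.0 FPKM in scramble cells on average (adjusted p = 0.056), without overlap. USP48 had a log2 difference of 0.11 (adjusted p = 0.16) and USP28, known from MYC stability and the DNA damage response, −0.08 (adjusted p = 0.28).

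USP12 and USP46 are closely related enzymes that, like USP1, are switched on by the WD40 protein UAF1, the product of WDR48. USP12 had 12.03, 13.07 and 12.4 FPKM in siDYRK2 cells, against 10.99, 11.05 and 11.04 FPKM in scramble cells, without overlap (log2 difference 0.17, SE 0.0404, adjusted p = 0.013). USP46 had 3.67, 3.15 and 3.08 FPKM in siDYRK2 cells, against 3.08, 3.31 and 3.17 FPKM in scramble cells, with overlap (log2 difference 0.04, 95% interval −0.13 to 0.21, adjusted p = 0.69). WDR48 itself, named with its values known, had 3.98, 4.32 and 4.22 FPKM in siDYRK2 cells, against 3.71, 3.54 and 3.31 FPKM in scramble cells (log2 difference 0.22, adjusted p = 0.024).

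The largest rise of the family was that of USP2, a protease known to stabilise cyclin D1 and MDM2 and to follow the circadian clock. USP2 had 1.77, 1.92 and 2.33 FPKM in siDYRK2 cells, against 0.83, 0.87 and 0.86 FPKM in scramble cells. The lowest siDYRK2 library was above the highest scramble library, and siDYRK2 replicate 3 was the highest of all. The difference was 0.88 in log2 (SE 0.0982, 95% interval 0.65 to 1.11, adjusted p = 5.3e-04), 2.35-fold in mean FPKM. USP2 lies on GRCh38 chromosome 11, 119355215 to 119381726, minus strand. Its relative USP21, a protease of histones, had 12.2, 12 and 12.2 FPKM in siDYRK2 cells, against 11.1, 11.9 and 11.8 FPKM in scramble cells (log2 difference 0.06, adjusted p = 0.28).

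The largest fall was that of USP38, which is known for limiting antiviral signalling through TBK1 and for acting on histone modifiers. USP38 had 3.69, 3.83 and 3.73 FPKM in siDYRK2 cells, against 6.44, 6.5 and 6.59 FPKM in scramble cells. The groups were far apart with little spread within each, and the log2 difference was −0.72 (SE 0.0425, 95% interval −0.82 to −0.62, adjusted p = 3.4e-05), the smallest p of all members. USP38 lies on GRCh38 chromosome 4, 143184917 to 143223830, plus strand. The divergent USP38-DT, looked up after its values were seen, starts 56 bases from it and had 1.38, 1.6 and 1.44 FPKM in siDYRK2 cells, against 1.2, 1.43 and 1.53 FPKM in scramble cells. That neighbour did not differ beyond its spread (log2 difference 0.07, 95% interval −0.15 to 0.29, adjusted p = 0.61). USP36, a nucleolar protease listed in the same role group, had 10.8, 10.8 and 11.5 FPKM in siDYRK2 cells, against 11.6, 12.1 and 13.1 FPKM in scramble cells (log2 difference −0.15, adjusted p = 0.064).

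USP18, which takes the ubiquitin-like ISG15 off proteins and restrains the type I interferon receptor, was the second largest rise. USP18 had 7.29, 7.56 and 7.09 FPKM in siDYRK2 cells, against 5.02, 4.64 and 5.04 FPKM in scramble cells. All siDYRK2 libraries were above all scramble libraries, and the log2 difference was 0.53 (SE 0.0499, 95% interval 0.42 to 0.65, adjusted p = 2.6e-04). USP18 lies on GRCh38 chromosome 22, 18149899 to 18177397, plus strand. ISG15, its modifier, was named with its values known and had 13.4, 12.4 and 10.9 FPKM in siDYRK2 cells, against 13.3, 14.2 and 16.8 FPKM in scramble cells (log2 difference −0.27, adjusted p = 0.072), so it did not pass the test.

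**Figure D3:**
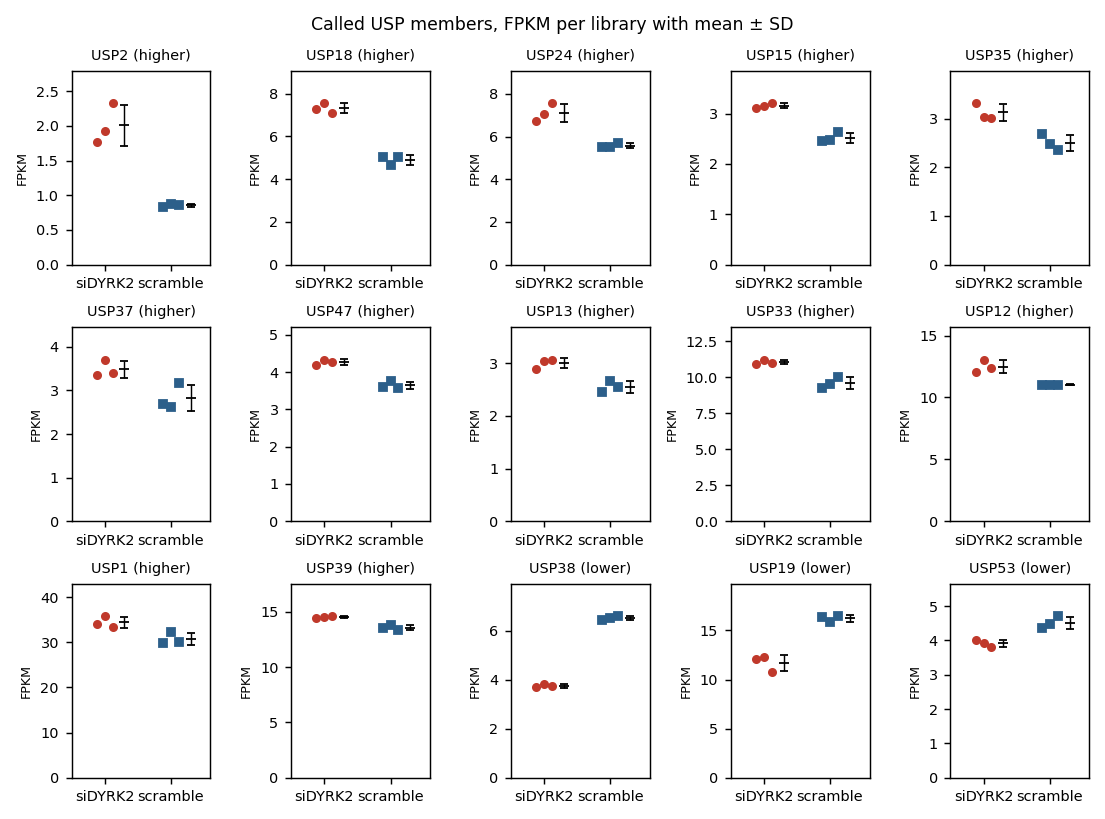
FPKM per library of the 15 called USPs, siDYRK2 circles left and scramble squares right in each panel, with mean ± SD (n = 3 each) and axes from 0. In every panel the groups do not overlap; USP38, USP19 and USP53 are lower and the other 12 are higher in siDYRK2 cells.

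Of the 3 USPs of mitochondria and the endoplasmic reticulum, USP19 fell, or 33.3% called against 38.3% of all tested genes. USP19, which has a form anchored in the endoplasmic reticulum and acts in protein quality control there, had 12.1, 12.3 and 10.8 FPKM in siDYRK2 cells, against 16.4, 15.8 and 16.5 FPKM in scramble cells. The highest siDYRK2 library was below the lowest scramble library, with siDYRK2 replicate 3 lowest, and the log2 difference was −0.45 (SE 0.0538, 95% interval −0.58 to −0.33, adjusted p = 7.1e-04). USP19 lies on GRCh38 chromosome 3, 49108046 to 49120938, minus strand. USP30, the protease of the mitochondrial outer membrane that opposes parkin, had a log2 difference of 0.15 (adjusted p = 0.14), and USP25 one of −0.09 (adjusted p = 0.12).

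In the group of Wnt and other signalling, 1 of 7 tested members rose and 1 fell, or 28.6% called against the same 38.3%. USP24, a very large protease related to USP9X and USP34, had 6.74, 7.05 and 7.57 FPKM in siDYRK2 cells, against 5.49, 5.53 and 5.69 FPKM in scramble cells. Its groups were apart, and the log2 difference was 0.33 (SE 0.0518, 95% interval 0.21 to 0.45, adjusted p = 0.0026). USP24 lies on GRCh38 chromosome 1, 55066359 to 55215113, minus strand. USP53, whose mouse counterpart binds tight junction proteins, had 4.02, 3.92 and 3.81 FPKM in siDYRK2 cells, against 4.36, 4.47 and 4.71 FPKM in scramble cells (log2 difference −0.18, SE 0.0505, adjusted p = 0.026).

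The call of USP53 ended without siDYRK2 replicate 2 or 3 and without scramble replicate 2 or 3, at adjusted p between 0.0664 and 0.075. Its relative USP54 had 2.48, 2.67 and 2.42 FPKM in siDYRK2 cells, against 2.49, 2.58 and 2.53 FPKM in scramble cells (adjusted p = 0.95). USP34, which acts on axin in Wnt signalling, had 10.6, 10.9 and 11.2 FPKM in siDYRK2 cells, against 11.3, 11.5 and 11.1 FPKM in scramble cells (adjusted p = 0.33). USP31, USP40 and USP45 had log2 differences of −0.10, 0.13 and −0.14, none past the test.

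Of the 5 tested USPs of endosomes and membrane traffic, 1 rose, or 20% called against 38.3% of all tested genes. USP33, known with USP20 for the recycling of the beta-2 adrenergic receptor and as a binding partner of VHL, had 10.9, 11.2 and 11.0 FPKM in siDYRK2 cells, against 9.25, 9.53 and 10.0 FPKM in scramble cells (log2 difference 0.19, SE 0.0417, adjusted p = 0.0095). The groups did not overlap. USP20 had 6.62, 6.45 and 6.03 FPKM in siDYRK2 cells, against 6.24, 6.04 and 6.25 FPKM in scramble cells (log2 difference 0.04, adjusted p = 0.55). USP8, which acts on EGFR at endosomes, had a log2 difference of 0.08 (adjusted p = 0.20), and USP32 and USP43 had −0.10 and 0.13, neither past the test.

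The chromatin USPs gave no call in 7 tested members at the adjusted p, and 0 of the 7 had an unadjusted p under 0.05 in limma. USP22, the ubiquitin protease of the SAGA coactivator complex and the most abundant USP, had 61.0, 60.1 and 63.6 FPKM in siDYRK2 cells, against 62.1, 62.0 and 60.3 FPKM in scramble cells (log2 difference 0.0020, 95% interval −0.07 to 0.08). The log2 differences of the other members, USP3, USP16, USP21, USP27X, USP42 and USP49, were between −0.06 and 0.15. The proteasome and free ubiquitin group also had no call in 2 tested members, against the same 38.3% of all tested genes. USP14, bound to the proteasome, had a log2 difference of 0.08 (adjusted p = 0.17) and USP5, which takes apart unanchored chains, 0.11 (adjusted p = 0.27). Their 95% intervals were −0.02 to 0.17 for USP14 and −0.06 to 0.27 for USP5. USP5 had 18.09, 19.52 and 21.21 FPKM in siDYRK2 cells, against 19.38, 18.29 and 16.81 FPKM in scramble cells, with overlap.

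**Figure D4:**
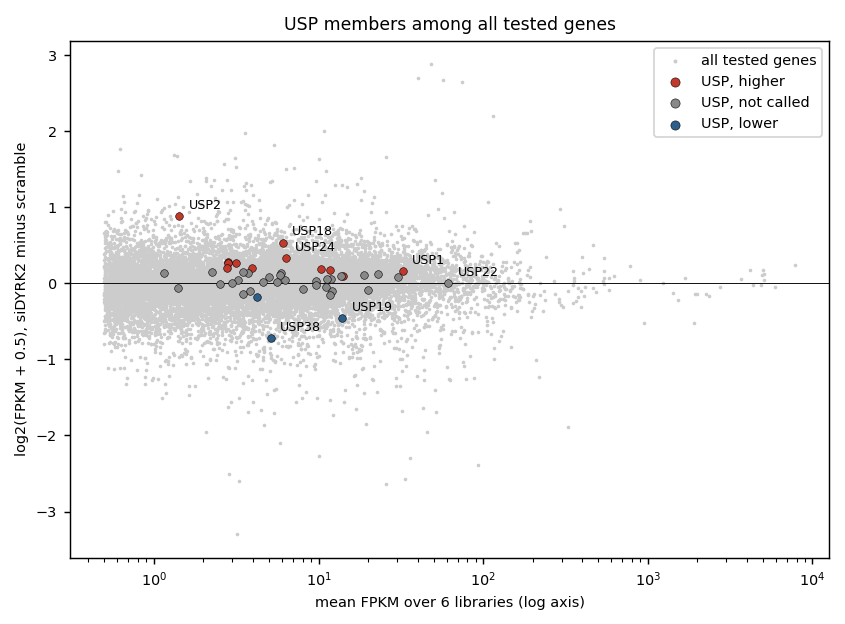
Log2 difference of siDYRK2 over scramble cells against mean FPKM over 6 libraries on a log axis for all 15121 tested genes in grey, with the 45 tested USPs as larger points coloured by call. The USPs lie within the cloud of all genes, with USP2 at 0.88 highest and USP38 at −0.72 lowest.

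Ratios between close relatives were compared within each library. For 18 pairs of related members the ratio of FPKM was taken, and in 10 pairs the ratios of the siDYRK2 libraries did not overlap those of the scramble libraries. Each such pair reached the smallest exact permutation p of 0.1, which is 0.18 after adjustment over the 18 pairs, so this design cannot pass a threshold of 0.05. For single genes the groups did not overlap in 51.7% of all tested genes, so the count of pairs is not a result about the family. The ratio of USP35 to USP38 was 0.900, 0.794 and 0.810 in siDYRK2 cells, against 0.416, 0.380 and 0.358 in scramble cells. On the log2(FPKM + 0.5) scale of the test, which gives a smaller shift than these plain ratios, it moved by 0.99. The ratio of USP2 to USP21 averaged 0.165 in siDYRK2 cells and 0.0733 in scramble cells. Within the USP9X, USP24 and USP34 group, the ratios that hold USP24 separated the groups, while that of USP9X to USP34 did not. The ratio of USP9X to USP24 averaged 1.35 in siDYRK2 cells and 1.75 in scramble cells, and that of USP24 to USP34 averaged 0.653 in siDYRK2 cells and 0.493 in scramble cells.

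In the SMAD group, USP4 stood level with USP15 in siDYRK2 cells, with ratios of 1.00, 0.911 and 0.941, against 1.26, 1.15 and 1.14 in scramble cells. The ratio of USP11 to USP15 averaged 3.66 in siDYRK2 cells and 4.40 in scramble cells. In each of the remaining pairs without overlap the mean ratio was lower in siDYRK2 cells. It was 0.576 in siDYRK2 and 0.644 in scramble cells for USP20 to USP33, and 1.55 in siDYRK2 and 1.78 in scramble cells for USP53 to USP54. It was 3.32 in siDYRK2 and 3.64 in scramble cells for USP7 to USP47, and 2.80 in siDYRK2 and 3.47 in scramble cells for USP36 to USP42. The ratio of USP12 to USP46 overlapped, at 3.82 in siDYRK2 cells and 3.46 in scramble cells on average, as did that of USP25 to USP28, at 2.48 in siDYRK2 cells and 2.50 in scramble cells.

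**Figure D5:**
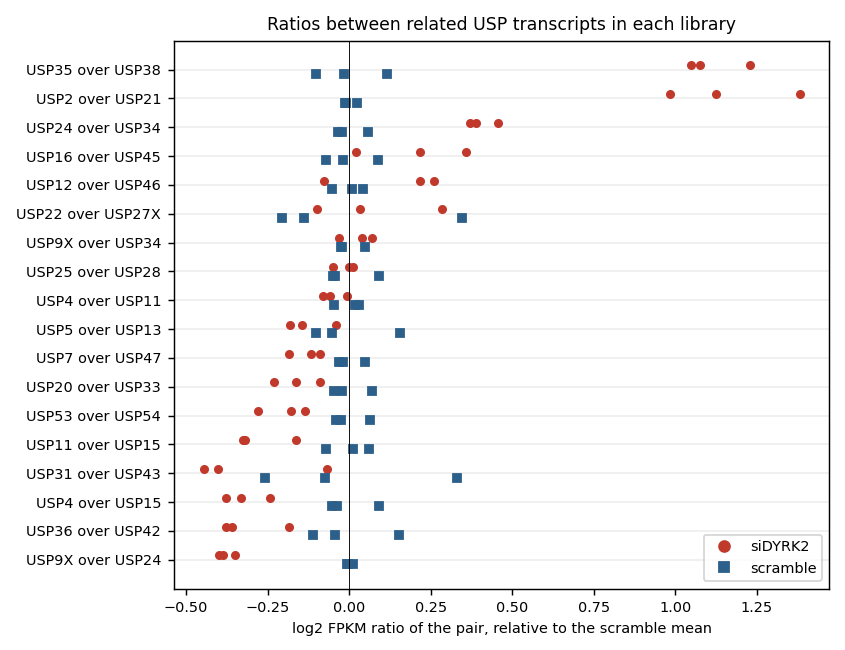
Log2 ratio of FPKM for 18 pairs of related USPs in each library, relative to the scramble mean of the pair, with siDYRK2 circles above scramble squares. USP35 over USP38 and USP2 over USP21 lie farthest right, and 10 pairs show no overlap. The ratios plotted are of FPKM with nothing added.

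Transcripts of the proteins that the USPs bind or act on were called in both directions. Of 17 binding partners, 3 were higher and 4 lower in siDYRK2 cells, or 41.2% called against 38.3% of all tested genes, with a median log2 difference of −0.02 against 0.0086. SQSTM1, the autophagy receptor p62, was at 132 FPKM in siDYRK2 cells and 166 FPKM in scramble cells (log2 difference −0.33, adjusted p = 2.7e-04), and HGS, an endosomal sorting protein that works with the USP8 partner STAM, at 21.9 and 26.5 FPKM (siDYRK2 and scramble; −0.27, adjusted p = 6.0e-04). YWHAE, the 14-3-3 protein that binds USP8, was at 144 FPKM in siDYRK2 cells and 127 FPKM in scramble cells (0.18, adjusted p = 0.0029). STAM was at 13.1 FPKM in siDYRK2 cells and 14.75 FPKM in scramble cells (log2 difference −0.16, adjusted p = 0.021). The related STAM2 did not pass the test (−0.07, adjusted p = 0.53). The USP8 partners YWHAE and STAM thus differed in direction. ATXN7L3, which activates USP22 within SAGA, was at 12.7 FPKM in siDYRK2 cells and 14.98 FPKM in scramble cells (−0.23, adjusted p = 0.0079).

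Of 23 known substrates, 7 were higher and 7 lower, or 60.9% called against 38.3% of all tested genes, with a median log2 difference of −0.04 against 0.0086. Without scramble replicate 2 the count of lower substrates was 4, and that of all lower genes went from 2714 to 2099. SMAD3, which carries the TGF-β signal into the nucleus, was at 21.9 FPKM in siDYRK2 cells and 29.5 FPKM in scramble cells (log2 difference −0.43, adjusted p = 6.4e-05). SMAD2 was at 2.80 FPKM in siDYRK2 cells and 3.91 FPKM in scramble cells (−0.42, adjusted p = 7.3e-04). SMAD4, added with its values known, was at 3.85 FPKM in siDYRK2 cells and 4.53 FPKM in scramble cells (−0.21, adjusted p = 0.018). The receptor gene TGFBR1 was at 4.97 FPKM in siDYRK2 cells and 5.46 FPKM in scramble cells. It was lower without overlap but did not pass the test (log2 difference −0.12, 95% interval −0.24 to −0.01, adjusted p = 0.081). The inhibitor SMAD7 did not pass it either, at 4.36 FPKM in siDYRK2 cells and 4.53 FPKM in scramble cells (adjusted p = 0.53).

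EGFR, a USP8 substrate, was at 23.7 FPKM in siDYRK2 cells and 33.4 FPKM in scramble cells (log2 difference −0.48, adjusted p = 1.2e-04). CCNA2, the cyclin A gene, was at 20.6 FPKM in siDYRK2 cells and 14.3 FPKM in scramble cells (0.51, adjusted p = 3.2e-04). FANCD2, FANCI and PCNA, the substrates of USP1, were named with their values known and were all higher in siDYRK2 cells. FANCD2 was at 3.59 FPKM in siDYRK2 cells and 2.24 FPKM in scramble cells (0.58, adjusted p = 0.0017). FANCI was at 4.89 FPKM in siDYRK2 cells and 3.45 FPKM in scramble cells (0.45, adjusted p = 0.0020). PCNA was at 81.1 FPKM in siDYRK2 cells and 59.0 FPKM in scramble cells (0.46, adjusted p = 0.0014). These are transcript levels and say nothing of the proteins that the USPs act on.

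Among 36 tested deubiquitinases and related proteins outside the naming rule, 10 were higher and 6 lower, or 44.4% called against 38.3% of all tested genes, with a median log2 difference of 0.02 against 0.0086. The count of higher genes was 6 without siDYRK2 replicate 1, without siDYRK2 replicate 2 or without scramble replicate 1. In the same order, all higher genes went from 3079 to 2389, 2332 and 2566. UCHL5, a protease of the proteasome and of the INO80 complex, had 15.3, 15.4 and 14.1 FPKM in siDYRK2 cells, against 9.84, 10.2 and 10.6 FPKM in scramble cells (log2 difference 0.53, adjusted p = 2.0e-04). OTUD1 had 1.55, 1.61 and 1.09 FPKM in siDYRK2 cells, against 3.81, 4.12 and 4.23 FPKM in scramble cells (−1.26, adjusted p = 2.2e-04), a larger difference than that of any USP. BAP1, the tumour suppressor that acts on histones, was at 16.99 FPKM in siDYRK2 cells and 20.28 FPKM in scramble cells (−0.25, adjusted p = 0.0013). It is also in the list of substrates, so its call is counted in both lists. PAN2, a deadenylase subunit with an inactive USP-like domain, was at 7.02 FPKM in siDYRK2 cells and 9.49 FPKM in scramble cells (−0.41, adjusted p = 0.0020).

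Of the 6 genes that encode ubiquitin or its activating enzymes, 3 were higher and 1 lower, or 66.7% called against 38.3% of all tested genes. UBA1, the main ubiquitin-activating enzyme, was at 48.7 FPKM in siDYRK2 cells and 38.4 FPKM in scramble cells (log2 difference 0.34, adjusted p = 2.5e-04), and UBA6, the alternative one, at 6.28 and 5.32 FPKM (siDYRK2 and scramble; 0.22, adjusted p = 0.0065). The ubiquitin gene UBB was at 121 FPKM in siDYRK2 cells and 108 FPKM in scramble cells (0.15, adjusted p = 0.044), while RPS27A, which encodes ubiquitin fused to a ribosomal protein, was at 133 and 149 FPKM (siDYRK2 and scramble; −0.16, adjusted p = 0.0025).

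A 7-base word, ATCTATA, was picked in an earlier look at these same data because genes that hold it in their 3′ untranslated region tended to be lower, so its count among the USPs is a description and supports nothing. Of 11623 tested genes searched in 1 transcript each, 1172 held it (10.1%), and of these 31.6% were called lower and 14.9% higher, against 17.2% and 25.9% of the genes without it. Among the 45 tested USPs 7 held it (15.6%): USP38 was lower, USP13 and USP15 were higher, and USP8, USP31, USP49 and USP54 had no call. The sites of the 3 called members are shown, 27 bases each on the strand of the gene on GRCh38, with the word in capitals.
USP38, chr4:143223460-143223486, plus strand: ttaagttcaaATCTATAatttttttct
USP15, chr12:62408738-62408764, plus strand: tcagttgcagATCTATAttatatatca
USP13, chr3:179787570-179787596, plus strand: tgctccacttATCTATActtttttggg
The word starts at base 3014 of the 3374 bases of the USP38 region. DYRK2 itself holds 1 copy in its 3′ untranslated region of 6693 bases and 1 elsewhere in the transcript.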

How the data were processed

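Total RNA of HK-2 cells was sequenced in 6 libraries with Illumina chemistry, per the labels. HISAT2, StringTie and GRCh38 are named, with no versions, in the submitters' processing notes. The deposited table holds FPKM that the authors computed, with 2 decimals, for 33392 genes in 6 columns matched to the labels by library name. The sources used here give neither strandedness nor how multiply mapped fragments were treated. Whole reads were not recovered: 23.5% to 27.2% of low values lay within 0.1 of a whole number of steps, against 20% by chance. Depth is therefore unknown, and no count model or counting interval was used.

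The 15121 genes whose mean reached 0.5 FPKM were log2-transformed after adding 0.5 and compared in limma 3.58.1 (R 4.3.3; mean-variance trend, no block), with Benjamini-Hochberg adjustment over all of them. The script was tested on simulated data. Values are FPKM per library or group means. Fold values are ratios of mean FPKM. For ratios of related members the test was a two-sided exact permutation of log2 ratios taken after adding 0.5 to each FPKM. The ratios printed are of plain FPKM. Positions and transcripts are from GENCODE v29, and promoters from RefSeq on GRCh38.p14. Motifs were searched in Python 3.11.15 with pandas 2.3.3.

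The members, the role groups and all gene lists were chosen with earlier results of these data known. Values per library are given for up to 10 called members with the largest absolute log2 difference in each direction, for the TGF-β and SMAD group, for USP1, for relatives of these and for DYRK2. Up to 4 called genes with the smallest adjusted p are named from each other list. Other genes were named with their values known. Values per library of USP39, USP22, USP36, USP38-DT, WDR48, ISG15, UCHL5 and OTUD1 were also added with values known. The 14 alternatives changed the pseudocount, the filter, the scaling, the trend, the block or left out 1 library. Some genes of the marker lists are not reported here.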

Additional observations from a re-analysis of the deposited data

How the results depend on the processing

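Of the 15 called USPs, 9 kept their call in all 14 alternatives (USP2, USP18, USP24, USP15, USP47, USP33 and USP12 higher, USP38 and USP19 lower), and 0 of the 15 changed direction. The calls lost were those of USP39, USP37, USP13, USP1, USP53 and USP35. USP10, USP36 and USP40, not called, gained a call in at least 1 alternative. The count of higher USPs, 12, was 7 to 9 when 1 library was left out, lowest without siDYRK2 replicate 1, and that of lower USPs, 3, was 2 to 4. Calls over all tested genes also became fewer with 1 library left out. Higher calls went from 3079 to between 2332 and 2728, and lower calls from 2714 to between 2099 and 2367. With no filter on low values all higher calls numbered 2516. Lower substrates, 7, numbered 4 to 7 with 1 library left out, lowest without scramble replicate 2. Higher genes among the other deubiquitinases, 10, numbered 6 with no filter on low values and 6 to 9 with 1 library left out, lowest without siDYRK2 replicate 1, siDYRK2 replicate 2 or scramble replicate 1. The cause of these shifts was not tested.

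Some uncalled log2 differences near 0 changed sign. With median-of-ratios scaling USP22 was −0.011 and USP4 was −0.0026, and with equal sums outside mitochondrial genes USP54 was 0.0015. With 1 library left out the ranges were −0.022 to 0.019 for USP22, −0.0014 to 0.055 for USP16, −0.064 to 0.021 for USP9X, −0.011 to 0.054 for USP3, −0.028 to 0.064 for USP44, −0.028 to 0.082 for USP46, −0.019 to 0.035 for USP4, −0.040 to 0.019 for USP54 and −0.18 to 0.026 for USP27X. Scaling moved the median of all tested genes by less than 0.1.

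Same-numbered siDYRK2 and scramble libraries had correlations of deviations of −0.0767, 0.0243 and −0.0884, and not every library correlated best with its own number. The labels do not say whether same-numbered libraries shared a culture or day, and these small values cannot decide it. With the replicate block 9 USPs were called higher and 3 lower, among 2495 higher and 2321 lower genes in all. With the block USP39, USP53, USP37 and USP13 missed the threshold (adjusted p 0.112, 0.0746, 0.073 and 0.0656) and USP36 passed it (0.0488).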
